A study of Mus musculus with 8 samples.

Results

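Caveolae are flask-shaped pits of the plasma membrane that buffer membrane tension and carry molecules across thin cells, and in the lung they are abundant in capillary endothelium, in alveolar type 1 cells and in fibroblasts. Caveolins insert into the inner leaflet and oligomerize, cavins assemble around them as an outer coat, and EHD2 and PACSIN2 shape or hold the neck of the pit. The genes described here are 7 that encode these coat and neck proteins, Cav1, Cav2, Cavin1, Cavin2, Cavin3, Ehd2 and Pacsin2, chosen by name for their role. All 7 were found among the 27179 genes of the count table, by Entrez Gene identifier.

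The RNA came from the lungs of C57BL/6 mice (C57BL/6J in the study's methods) carrying Eml4-Alk tumors, which form after an adenovirus brings Cas9 and guide RNAs into the airways and joins Eml4 to Alk by a chromosomal rearrangement. The mice were 18 to 22 weeks old and 11 to 12 weeks past induction, and all had been injected by vein with QZ1-(PEG2K), a peptide probe that fluoresces in Cy5 after proteases cut it. Live cells without CD45 and CD11b were sorted by probe signal, gated against EpCAM, into QZ1-hi and QZ1-lo populations, with 4 bulk RNA-seq libraries each. Neither population was untreated, no healthy lung was included, and neither the labels nor the study say which QZ1-hi and QZ1-lo libraries, if any, share a mouse. The labels do not state that each library came from its own mouse, so p-values measure the spread between these libraries. In bulk RNA, fewer cells of a type and less RNA per cell cannot be told apart.

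Libraries held between 18380918 and 26847938 counts, of which mitochondrial ribosomal RNA took 39.5% to 58.4% in QZ1-hi and 30.2% to 47.3% in QZ1-lo. The coat genes were well counted, and the smallest member count in any library was 284, for Cav1 in a QZ1-lo library. The sort mixed several cell types, and markers of many of them differed between the populations. All 9 endothelial markers tested were called higher in QZ1-hi, with a summed level, as counts scaled to library size (CPM), of 1166 to 2541 CPM against 71.8 to 315 CPM. Of 8 fibroblast markers, 7 were called higher, with 1673 to 3267 CPM against 42.9 to 373 CPM. Markers of alveolar type 1 cells went mostly the other way, with 5 of 8 called lower and 1 higher, at 893 to 1305 CPM in QZ1-hi and 1555 to 1940 CPM in QZ1-lo. None of these marker genes was at 0 in all libraries. Genes of the leukocyte list summed to 2961 to 6299 CPM in QZ1-hi and 2114 to 4169 CPM in QZ1-lo, although the gate excluded CD45 and CD11b. Most of this sum was Lyz2, at 2696 to 5763 CPM in QZ1-hi and 1895 to 3761 CPM in QZ1-lo. The gate did not act on Lyz2 itself, and which cells made it was not tested. Ptprc, the gene of CD45, had 71.4 to 222 CPM in QZ1-hi and 93.4 to 161 CPM in QZ1-lo. Of 7 leukocyte markers, 0 were called in either direction by edgeR, DESeq2 or limma-voom, or had an unadjusted p under 0.05.

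Cav1 and Cav2 lie next to each other on chromosome 6 and their products form mixed oligomers, while Cavin2 lies on chromosome 1. The 250 bases before the start of these 3 genes are shown because Cav1 and Cavin2 differed most between the populations among the 7 genes and Cav2, beside Cav1, differed much less. They are RefSeq promoter windows on GRCm38.p6, plus strand, at chr6:17306085-17306334 for Cav1, chr6:17280935-17281184 for Cav2 and chr1:51288876-51289125 for Cavin2, written 5′ to 3′, with matches on either strand in capitals. The motifs searched were the TATA box (TATAAA), the GC box bound by Sp1 (GGGCGG), the CCAAT box, the TEAD motif (GGAATG), a core of the ETS motif (CCGGAA), the AP-1 motif (TGACTCA) and the CArG box, and the matches shown did not overlap each other. RefSeq gives Cav1 a second start further along the gene, which is not shown.
Cav1: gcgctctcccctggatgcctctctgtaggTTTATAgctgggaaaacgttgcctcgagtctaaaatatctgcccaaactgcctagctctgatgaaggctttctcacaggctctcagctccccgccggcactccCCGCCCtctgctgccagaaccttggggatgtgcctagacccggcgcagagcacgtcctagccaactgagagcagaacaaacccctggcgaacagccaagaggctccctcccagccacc
Cav2: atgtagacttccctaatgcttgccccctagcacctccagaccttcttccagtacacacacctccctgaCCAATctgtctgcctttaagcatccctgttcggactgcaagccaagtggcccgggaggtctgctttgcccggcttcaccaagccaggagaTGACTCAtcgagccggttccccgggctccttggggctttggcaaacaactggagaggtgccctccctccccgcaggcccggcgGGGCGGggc
Cavin2: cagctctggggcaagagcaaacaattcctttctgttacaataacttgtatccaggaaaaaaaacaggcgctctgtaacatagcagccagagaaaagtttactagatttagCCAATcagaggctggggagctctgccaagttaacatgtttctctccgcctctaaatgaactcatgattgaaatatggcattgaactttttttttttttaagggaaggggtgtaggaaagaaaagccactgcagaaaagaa

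The Cav1 window held 1 TATAAA and 1 GGGCGG match, the Cav2 window 1 CCAAT, 1 TGACTCA and 1 GGGCGG match, and the Cavin2 window 1 CCAAT match. No motif was therefore shared by the windows of Cav1 and Cavin2. Over all 32851 promoter windows of the same length in the table, 12.4% held TATAAA, 32.7% GGGCGG, 33.8% CCAAT, 12.6% GGAATG, 12% CCGGAA, 4.46% TGACTCA and 1.47% the CArG box. GC content was 59.6% for Cav1, 62% for Cav2 and 40.4% for Cavin2, against a median of 52.4% over all windows. The table had windows for 6 of the 7 genes. The 2 Cavin1 windows, which nearly coincide and are not shown, each held 1 GGGCGG, 1 CCAAT and 1 GGAATG match. The Ehd2 window held 1 GGGCGG and 1 CCAAT match, and the first Pacsin2 window 1 GGGCGG and 2 CCAAT matches. The letter matches are a description of these windows and were not tied to the counts.

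The comparison of QZ1-hi with QZ1-lo asked how cells sorted by in vivo probe cleavage differ in their transcripts. Of the 7 coat genes, 3 were called higher in QZ1-hi, Cav1, Cavin2 and Cavin1, and 0 were called lower or had a lower level at an unadjusted p under 0.05, in edgeR's quasi-likelihood fit of 15583 genes, with p-values adjusted by the method of Benjamini and Hochberg. Of all genes tested, 9.88% were called higher, 8.21% lower and 18.1% in either direction, or 1540 higher and 1280 lower. With libraries scaled by total count only, the split over all genes was 882 higher and 2509 lower, and the same 3 coat genes were called. The same 3 coat genes had CPM that did not overlap between the populations, as did 22.6% of all genes, or 11.9% with every QZ1-hi library on top. The median log2 fold change was 0.60 over the 7 coat genes and 0.02 over all genes tested. Leaving out each library in turn gave 3 or 4 coat genes called higher, and DESeq2 and limma-voom each called 4, Cav2 being the addition, with 11.6% and 10.9% of all genes called higher.

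Cav1, the caveolin without which caveolae do not form in non-muscle cells, lies at chr6:17306335-17341452 on the plus strand of GRCm38. It had 149.8, 146, 209 and 93.1 CPM in QZ1-hi replicates 1 to 4 and 18.5, 27.3, 27.2 and 11.6 CPM in QZ1-lo replicates 1 to 4, on a scale with TMM factors that adjust for composition. The populations were far apart, and in each of them replicate 4 was the lowest. Cav1 rose 7.07-fold (95% interval 4.46 to 11.2), or 2.82 on the log2 scale (SE 0.30, adjusted p = 0.000278, edgeR).

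Cav2, which needs CAV1 to leave the Golgi in many cells, lies at chr6:17281185-17289115 on the same strand. Its levels were 71.3, 64.1, 90.7 and 53.5 CPM in QZ1-hi and 41.5, 45.4, 62.8 and 35.0 CPM in QZ1-lo, replicates 1 to 4 of each. The populations overlapped, because QZ1-lo replicate 3 was above QZ1-hi replicate 4. The log2 fold change was 0.60 (SE 0.20, 95% interval 0.16 to 1.04) and missed the threshold in edgeR (adjusted p = 0.0638). This call depended on the library set and on the test. Without QZ1-lo replicate 3 the log2 fold change was 0.78 (adjusted p = 0.0164, edgeR), without QZ1-hi replicate 4 it was 0.74 (adjusted p = 0.0241, edgeR), and with all libraries DESeq2 gave 0.59 (adjusted p = 0.0367) and limma-voom 0.68 (adjusted p = 0.016). In the other direction, scaling by total count only gave 0.16 (adjusted p = 0.698, edgeR), under which the median of all genes was -0.44. QZ1-hi replicate 4 also had the highest level of the leukocyte gene Ptprc, at 222 CPM against 71.4 to 116 CPM in the other QZ1-hi libraries, and the part of this in the Cav2 value was not tested.

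Cavin1, the coat protein that muscle and other tissues need to form caveolae, also known as PTRF, lies at chr11:100956733-100970887 on the minus strand. Its levels were 316, 370.0, 465 and 241 CPM in QZ1-hi replicates 1 to 4 and 118, 127, 175 and 94.0 CPM in QZ1-lo replicates 1 to 4. No QZ1-lo library reached the lowest QZ1-hi library. Cavin1 rose 2.70-fold (95% interval 1.92 to 3.81), or 1.44 on the log2 scale (SE 0.23, adjusted p = 0.00134, edgeR).

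Cavin2, also known as SDPR, is a cavin that helps bend the membrane and that lung endothelium needs for its caveolae. The gene spans chr1:51289126-51302960. It had 177, 224, 351 and 146 CPM in QZ1-hi and 16.3, 46.2, 61.6 and 14.1 CPM in QZ1-lo, replicates 1 to 4 of each. The populations did not overlap, but within QZ1-lo, replicates 2 and 3 stood well above replicates 1 and 4. Cavin2 rose 6.50-fold (95% interval 3.19 to 13.3), or 2.70 on the log2 scale (SE 0.47, adjusted p = 0.0023, edgeR).

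Cavin3, the cavin that binds protein kinase C delta, lies at chr7:105480083-105482300 on the minus strand. It had 39.7, 37.9, 41.1 and 22.6 CPM in QZ1-hi and 39.0, 29.5, 27.9 and 31.6 CPM in QZ1-lo, replicates 1 to 4 of each. The populations overlapped, with QZ1-hi replicates 1 and 3 above every QZ1-lo library and QZ1-hi replicate 4 the lowest of all. Without QZ1-hi replicate 4 the log2 fold change was 0.33 (adjusted p = 0.176, edgeR). With all libraries the difference on the log2 scale was 0.14 (SE 0.19, 95% interval -0.28 to 0.56, adjusted p = 0.695, edgeR), and it was -0.29 with scaling by total count only. Of its exonic bases, 374 overlap Gm45667 on the opposite strand, and 20.1% of its exonic stretches of 50 bases occur in that gene. Whether the counting used strand is not given in the sources used here, so reads from these 2 genes may not have been told apart.

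Ehd2, an ATPase that forms a ring at the neck of caveolae, lies at chr7:15946958-15967567 on the minus strand. Its levels were 154, 125, 151 and 89.0 CPM in QZ1-hi and 139.5, 99.1, 109.5 and 98.9 CPM in QZ1-lo, with QZ1-hi replicate 4 again the lowest of all. The log2 fold change was 0.21 (SE 0.18, 95% interval -0.19 to 0.62, adjusted p = 0.506, edgeR), and -0.22 with scaling by total count only. Pacsin2, an F-BAR protein that curves membrane and is also made in most other cells, lies at chr15:83375607-83464606 on the minus strand. It had 104, 85.5, 90.6 and 96.1 CPM in QZ1-hi and 100.2, 97.5, 86.8 and 111 CPM in QZ1-lo. The log2 fold change was -0.07 (SE 0.12, 95% interval -0.33 to 0.19, adjusted p = 0.755, edgeR), and -0.52 (adjusted p = 0.145, edgeR) with scaling by total count only.

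**Figure D1:**
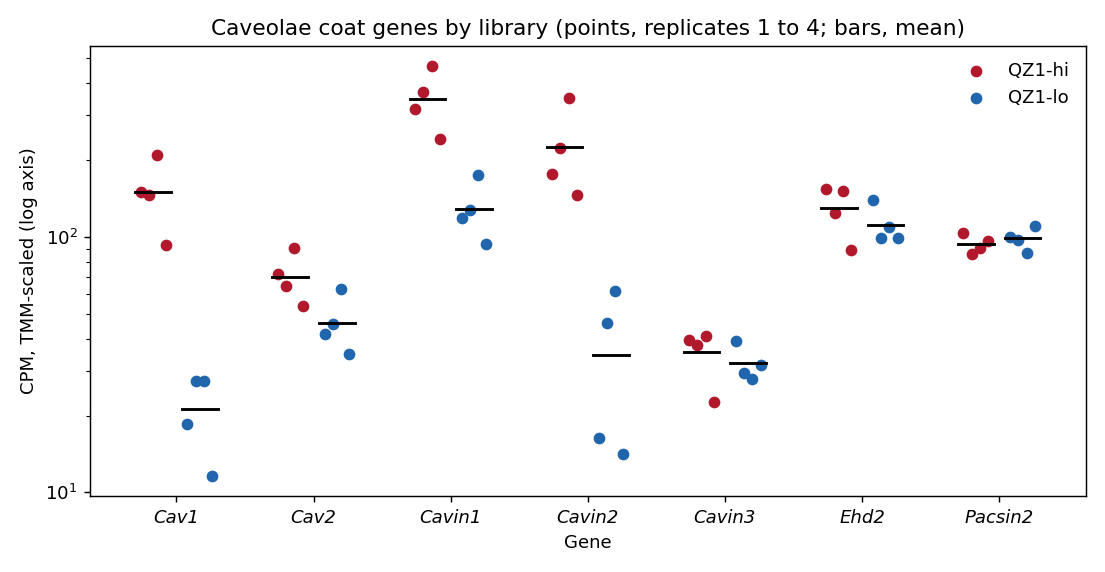
Level of the 7 coat genes in CPM (log axis) in each QZ1-hi (red) and QZ1-lo (blue) library, with bars at the population means. Cav1 (93.1 to 209 against 11.6 to 27.3 CPM), Cavin1 and Cavin2 separate the populations, and the points of Cav2, Cavin3, Ehd2 and Pacsin2 overlap.

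The levels of different genes were compared per length, as CPM per kb of exonic sequence. In QZ1-hi the order of the means was Cavin1 with 97.0 ± 26.3 CPM per kb (SD, n = 4), Cavin2 with 73.5 ± 29.6, Cav1 with 43.4 ± 13.8, Ehd2 with 25.3 ± 5.87, Cavin3 with 21.3 ± 5.14, Cav2 with 20.96 ± 4.70 and Pacsin2 with 19.2 ± 1.599. In QZ1-lo it was Cavin1 with 35.9 ± 9.48, Ehd2 with 21.8 ± 3.74, Pacsin2 with 20.1 ± 2.00, Cavin3 with 19.3 ± 2.96, Cav2 with 13.8 ± 3.56, Cavin2 with 11.3 ± 7.59 and Cav1 with 6.14 ± 2.20. Cavin1 was at the top in both, whereas Cav1 was the third in QZ1-hi and the last in QZ1-lo. The ranges over libraries overlapped for every pair of neighbours in either order, so the order of neighbours is not resolved by the spread. Within single libraries of QZ1-hi, Cavin1 was above Cavin2, Cavin2 above Cav1, Cav1 above Ehd2 and Ehd2 above Cavin3 in 4 of 4, while Cavin3 was above Cav2 in 2 of 4.

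As a share of the summed length-scaled level of the 7 genes, Cav1 made up 14.3% ± 1.03 (SD, n = 4) in QZ1-hi and 4.69% ± 1.27 in QZ1-lo. The Cav1 share ranged from 12.95% to 15.2% in QZ1-hi and from 3.20% to 6.13% in QZ1-lo, without overlap. Cavin2 had a share of 23.9% ± 3.38 against 8.39% ± 4.79. Cavin1 had 32.3% ± 1.37 and 27.6% ± 3.26, with overlapping ranges. The share of Pacsin2 was 6.78% ± 2.09 in QZ1-hi and 16.1% ± 3.99 in QZ1-lo, which follows in part from the sum, since the shares of a library add to the whole.

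**Figure D2:**
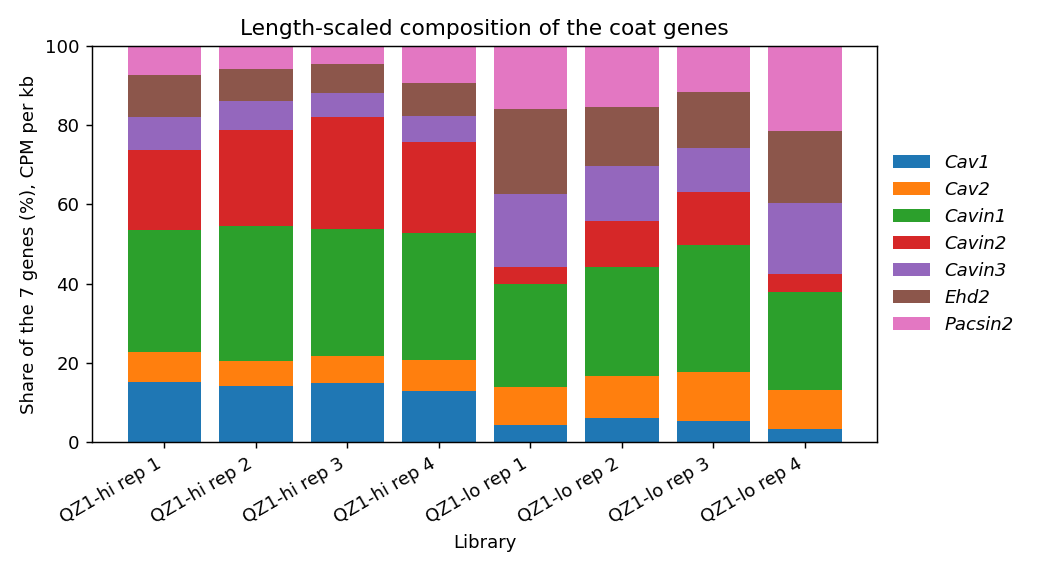
Share of each coat gene (%, CPM per kb) in the sum of the 7 genes, 1 bar per library. Cav1 and Cavin2 together fill a larger part of every QZ1-hi bar, with Cav1 at 12.95% to 15.2% against 3.20% to 6.13%, and the Cavin1 band is the widest in each bar.

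Ratios of counts within 1 library do not depend on how libraries are scaled to each other, so they were used to ask whether the coat genes differed by unequal amounts. Cav1 exceeded Cav2 in each QZ1-hi library, with log2 ratios of 1.07, 1.19, 1.21 and 0.80, and was below Cav2 in each QZ1-lo library, with -1.17, -0.74, -1.21 and -1.59. The mean log2 ratio was 1.07 ± 0.19 (SD, n = 4) and -1.17 ± 0.35 (SD, n = 4), a 4.72-fold difference in the ratio of these neighbouring genes (two-sided exact permutation p = 0.0286, which is the lowest value that 4 against 4 libraries allow). The log2 ratio of Cav1 to Cavin1 was -1.24 ± 0.14 in QZ1-hi and -2.65 ± 0.33 in QZ1-lo, again without overlap. The log2 ratio of Cav1 to Cavin2 was -0.56 ± 0.22 and -0.51 ± 0.59, with a difference of -0.05 and overlapping libraries (exact permutation test, two-sided p = 1).

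In all, 14 of the 21 pairs of coat genes had ratios that did not overlap, each with an exact permutation p of 0.0286 (0.0429 after Benjamini-Hochberg adjustment over the 21 pairs). These were all 12 pairs of a called with an uncalled gene and 2 of the 3 pairs of called genes, Cav1 with Cavin1 and Cavin1 with Cavin2. Of the 6 pairs of uncalled genes, 0 were apart. The calls were made on the same libraries, so the 12 pairs of a called with an uncalled gene largely restate the calls. Ratios without overlap were also common over all genes tested. The ratio of Cav1 to another gene did not overlap for 85.2% of them (85% with every QZ1-hi library on top), that of Cavin2 for 80.4%, of Cavin1 for 62.6%, of Cav2 for 28.3%, of Pacsin2 for 19.6%, of Ehd2 for 15.8% and of Cavin3 for 14.8%. Against the other 6 coat genes, 6 ratios of Cavin1, 5 each of Cav1 and Cavin2 and 3 each of Cav2, Cavin3, Ehd2 and Pacsin2 did not overlap. The ratio of Cav2 to Cavin1 was narrow in QZ1-lo, at -1.48 ± 0.04 (SD, n = 4) on the log2 scale, and -2.30 ± 0.18 in QZ1-hi. Cavin3 and Ehd2, which lie far apart on chromosome 7, kept log2 ratios of -1.88 ± 0.12 and -1.80 ± 0.14, with a difference of -0.08 (exact permutation test, two-sided p = 0.4).

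**Figure D3:**
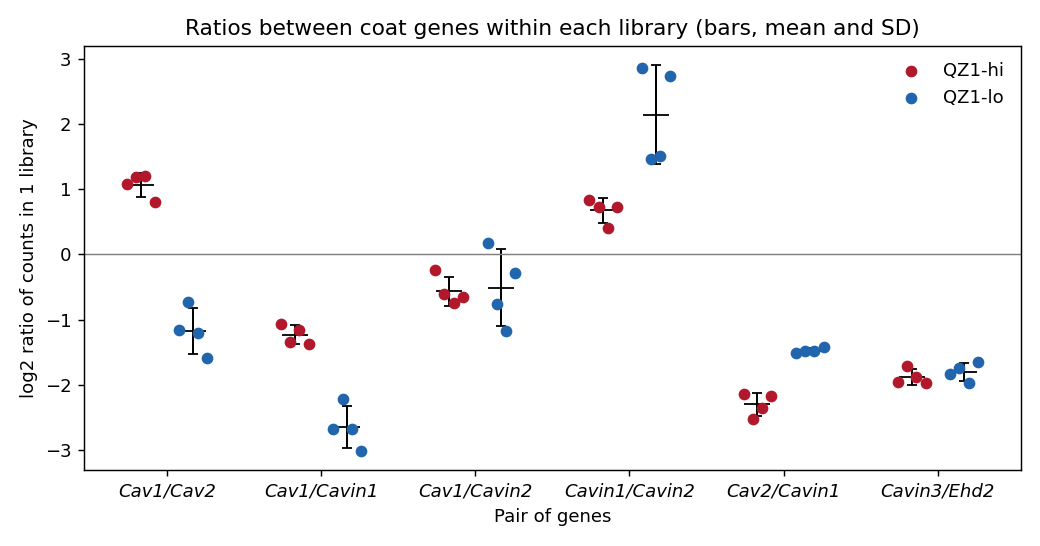
Log2 ratio of counts for 6 pairs of coat genes in each QZ1-hi (red) and QZ1-lo (blue) library, with means and SD as black bars. The Cav1 to Cav2 ratio changes sign between the populations (mean 1.07 against -1.17), whereas the Cav1 to Cavin2 and Cavin3 to Ehd2 points overlap.

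Cav1 and Cavin2 were also set against the endothelial markers of the same library, which were higher in QZ1-hi too. The median log2 fold change of the 9 endothelial markers was 3.45, and Cdh5, the cadherin of endothelial junctions, had 3.54 (SE 0.50). The fibroblast and mesothelial lists had medians of 3.36 and 3.06 and were not used as a reference, so the comparison is not particular to endothelium. Relative to the mean log2 CPM of this list, Cav1 was 0.25 ± 0.33 (SD, n = 4) in QZ1-hi and 1.06 ± 0.56 in QZ1-lo, a difference of -0.81 with overlapping libraries (exact permutation test, two-sided p = 0.0571). Cavin2 differed by -0.76 on the same log2 scale, also with overlap (exact permutation test, two-sided p = 0.0571). With 4 against 4 libraries, such overlap does not show that Cav1 or Cavin2 changed by the same amount as the list. The other 5 coat genes were lower in QZ1-hi than in QZ1-lo relative to this list, without overlap and by -2.22 for Cavin1 to -3.72 for Pacsin2 (exact permutation test, two-sided p = 0.0286 each), as were 88.7% of all genes tested. Both the endothelial and the fibroblast mean were highest, among QZ1-lo libraries, in replicate 3, the library with the most Cav2, Cavin1 and Cavin2 in that population.

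Markers of other cell types differed in both directions. General capillary markers were called higher in 6 of 6, aerocyte markers, of the capillary cells for gas exchange, in 5 of 6, pericyte markers in 2 of 6 and mesothelial markers in 3 of 3 by edgeR. DESeq2 and limma-voom called mesothelial markers in 2 of 3, and the mesothelial marker Upk3b had 126 CPM in QZ1-hi replicate 2 against 16.4 to 26.4 CPM in the other QZ1-hi libraries. Smooth muscle markers were called higher in 2 of 5 by edgeR and in 3 of 5 by DESeq2 and limma-voom, and lower in 1. In edgeR the lower one was Cnn1, at a very low level, with 1 count over the QZ1-hi libraries and 56 over the QZ1-lo libraries. Among alveolar type 1 markers, Aqp5, a water channel, differed by -0.98 on the log2 scale (SE 0.16, adjusted p = 0.00139, edgeR) and Pdpn, a surface glycoprotein also made by lymphatic endothelium and fibroblasts, had 0.72 (SE 0.18, adjusted p = 0.0157, edgeR). Adipocyte markers were near the floor, with Adipoq and Lep at 0 counts in all 8 libraries, and 0 of 2 adipocyte and 0 of 3 striated muscle markers tested were called by edgeR, DESeq2 or limma-voom or had an unadjusted p under 0.05. Alveolar type 2 markers were called higher in 2 of 8 and lower in 1, club and ciliated markers lower in 3 of 3 and 5 of 5, and erythroid markers in 0 of 4 by edgeR, DESeq2 or limma-voom, with 3 lower at an unadjusted p under 0.05 in edgeR. The part of these cell types in the coat gene differences was not tested.

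The muscle members of the coat families were close to absent. Cav3, the caveolin of striated muscle, had 0 counts in all 8 libraries, where 3 counts correspond to 0.0894 to 0.179 CPM. Cavin4, the muscle cavin, had 51 counts over the QZ1-hi libraries, or 0.40 to 0.93 CPM, and 5 counts over the QZ1-lo libraries, and was too low to enter the test.

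Relatives of the neck proteins did not follow one direction. Of 5 EHD and PACSIN relatives tested, 1 was called higher and 1 lower, with a median log2 fold change of 0.53. Over all genes tested, 9.88% were called higher and 8.21% lower. Ehd4, an endosomal EHD protein that endothelium also makes, had 181, 115, 252 and 129 CPM in QZ1-hi replicates 1 to 4 and 52.1, 49.8, 65.1 and 55.0 CPM in QZ1-lo. Every QZ1-hi library was above the QZ1-lo libraries, and Ehd4 rose by 1.61 on the log2 scale (SE 0.23, adjusted p = 0.000807, edgeR). Pacsin3, the relative best known from muscle, fell by 1.28 on the log2 scale (SE 0.29, adjusted p = 0.00992, edgeR), from 12.3 to 18.1 CPM in QZ1-lo to 3.51 to 9.18 CPM in QZ1-hi. Ehd1 and Ehd3, which act in recycling from endosomes, differed by 0.53 (SE 0.18) and 0.99 (SE 0.49) on the log2 scale and were not called.

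Proteins that reside in or signal from caveolae differed in both directions. Of 14 tested, 8 were called higher, 3 lower and 3 neither, with a median log2 fold change of 1.34. The shares over all genes tested were 9.88% higher and 8.21% lower. Plvap, which forms the diaphragm across endothelial caveolae and fenestrae, had 177, 64.6, 225 and 58.3 CPM in QZ1-hi and 7.25, 9.36, 32.9 and 2.87 CPM in QZ1-lo, replicates 1 to 4 of each. These libraries did not overlap, and Plvap rose by 3.32 on the log2 scale (SE 0.69, adjusted p = 0.00657, edgeR). Nos3, the endothelial nitric oxide synthase that CAV1 binds, rose by 3.01 on the log2 scale (SE 0.44, adjusted p = 0.000964, edgeR), and Nostrin, which moves that enzyme from the membrane, by 2.24 (SE 0.25, adjusted p = 0.000278, edgeR).

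Kdr, the main VEGF receptor of endothelium, rose by 2.54 (SE 0.40), Ptgis, the prostacyclin synthase, by 2.85 (SE 0.59), Cd36, a fatty acid translocase, by 1.36 (SE 0.20), Bmpr2, a BMP receptor, by 0.94 (SE 0.16) and Ror1, a Wnt receptor, by 1.62 (SE 0.49) on the log2 scale. The 3 genes that fell are made in many cell types. Src, a kinase that phosphorylates CAV1, fell by 0.91 (SE 0.17), Slc7a1, an arginine transporter, by 0.80 (SE 0.23) and Flna, an actin crosslinker that binds CAV1, by 0.46 (SE 0.13). Insr, Tgfbr1 and Trpc1 had log2 fold changes of 0.10, -0.07 and 1.32 and were not called. Several members of this list, Plvap, Nos3, Nostrin and Kdr among them, are themselves made mainly by endothelium. Ptgis was highest in QZ1-hi replicate 2, at 42.4 CPM against 13.2 to 17.1 CPM in the other QZ1-hi libraries. This library also had the highest level of the mesothelial marker Upk3b, and the part of any cell type in the Ptgis value was not tested.

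Clathrin-coated pits are another route of uptake. Of 12 genes of the clathrin coat and the dynamins, 1 was called, where 18.1% of all genes tested were called, and the median log2 fold change was 0.10. The heavy chain Cltc had 298 to 341 CPM in QZ1-hi and 297 to 336 CPM in QZ1-lo, with a difference of 0.03 (SE 0.11) on the log2 scale. Dnm2, the widely made dynamin that pinches off both clathrin pits and caveolae, had 0.12 (SE 0.12), whereas Dnm1, best known from neurons, rose by 2.88 (SE 0.41, adjusted p = 0.000869, edgeR), from 1.27 to 4.07 CPM to 10.6 to 32.8 CPM. The flotillins, which mark another kind of membrane domain, were called in 0 of 2 by edgeR, DESeq2 or limma-voom and had no unadjusted p under 0.05, with log2 fold changes of -0.19 for Flot1 and 0.12 for Flot2.

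Of 10 genes of cholesterol supply, on which caveolae depend, 1 was called higher and 2 lower, with a median log2 fold change of -0.27. Calls over all genes tested were 9.88% higher and 8.21% lower. Scarb1, the HDL receptor, rose by 1.67 (SE 0.21, adjusted p = 0.00051, edgeR) and its libraries did not overlap, at 46.8 to 81.8 CPM against 16.2 to 26.5 CPM. Sqle, the squalene epoxidase, fell by 0.93 (SE 0.23, adjusted p = 0.0148, edgeR) and Srebf2, the regulator of sterol synthesis, by 0.51 (SE 0.15, adjusted p = 0.0433, edgeR).

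**Figure D4:**
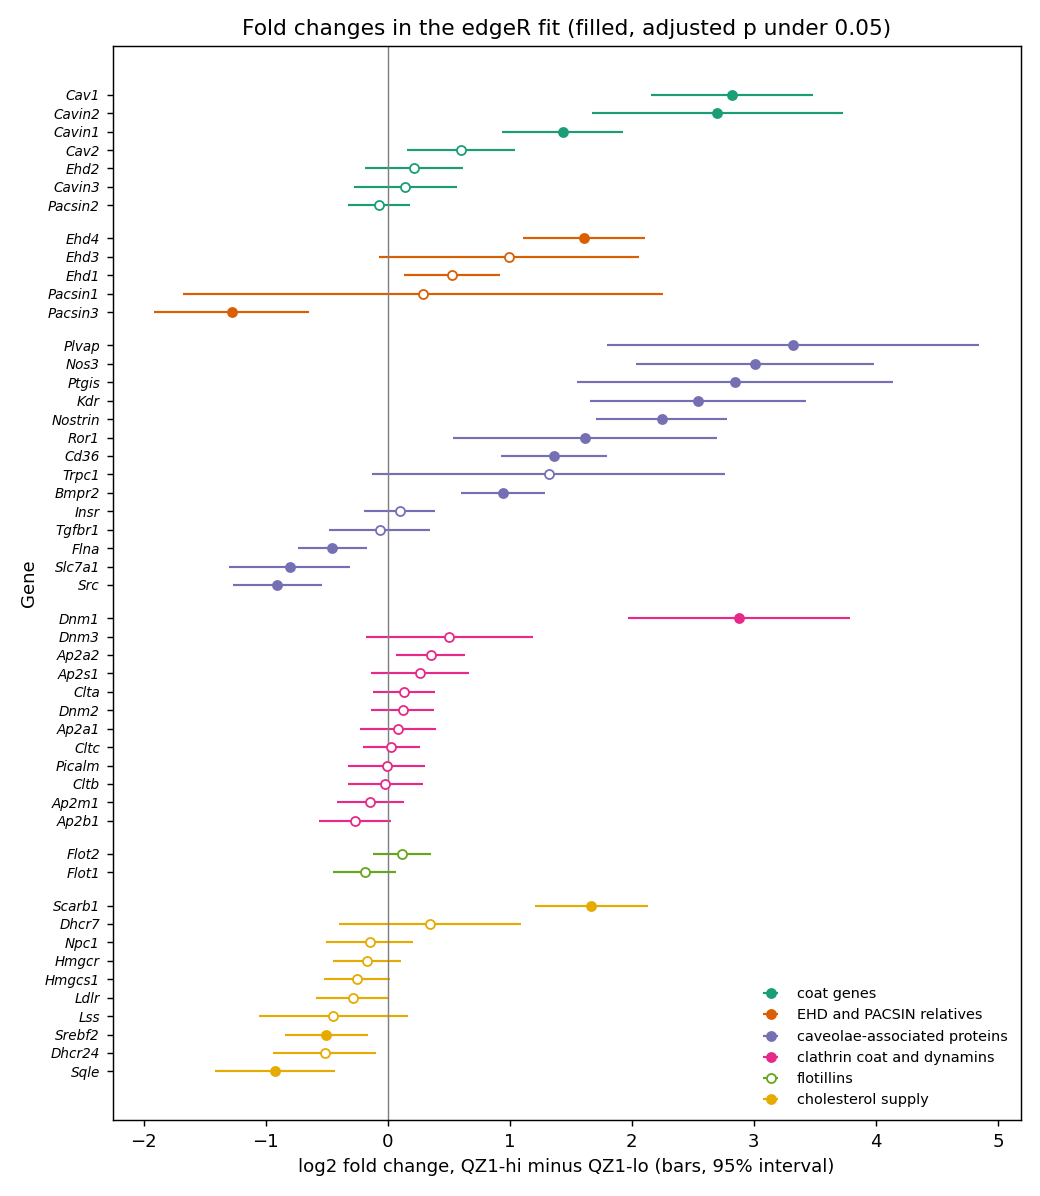
Log2 fold change, QZ1-hi minus QZ1-lo, with 95% intervals from the edgeR fit for the coat genes and 5 related lists, filled where the adjusted p is under 0.05. Cav1 (2.82), Cavin2 (2.70) and Cavin1 (1.44) lie among Kdr, Nos3 and Cd36, and the other coat genes lie between -0.07 and 0.60.

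Genes next to the coat genes were read out by position alone. Of 24 neighbours, 20 were tested, 1 was called higher and 3 lower, with a median log2 fold change of 0.09. Of all genes tested, 18.1% were called in either direction, so these calls are near that share. The neighbours lay up to 295682 bases from the locus, with Tes at 175360, Gm4876 at 109352, Met at 122021 and Tmeff2 at 101856 bases. Beside Cav2, Tes, a focal adhesion protein, fell by 1.16 on the log2 scale (SE 0.19, adjusted p = 0.00159, edgeR) and the long noncoding Gm4876 by 1.73 (SE 0.55, adjusted p = 0.0491, edgeR), while beside Cav1, Met, the receptor of hepatocyte growth factor, had -0.45 (SE 0.19, adjusted p = 0.131, edgeR) and Capza2 0.23 (SE 0.20). The neighbours of Cavin1, among them Stat3 with -0.03 (SE 0.11), were called in 0 of 4 by any of the 3 tools, also at an unadjusted p under 0.05. Beside Cavin2, Tmeff2, a membrane protein with follistatin domains, rose by 3.13 (SE 0.93, adjusted p = 0.0389, edgeR) from a level of 0 to 1.63 CPM in QZ1-lo to 2.33 to 10.7 CPM in QZ1-hi. Beside Cavin3, Apbb1 fell by 0.92 (SE 0.17, adjusted p = 0.00359, edgeR). Of the 6 neighbours of Ehd2 and Pacsin2 tested, 0 were called by any of the 3 tools, and at an unadjusted p under 0.05 there were 0 in edgeR and DESeq2 and 1 in limma-voom.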

How the data were processed

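Cells sorted from Eml4-Alk lungs were measured by bulk RNA-seq in 8 libraries. The authors deposited raw counts per gene, not normalized, made with Rsubread from stranded total RNA libraries. The submitters' processing notes name the build mm10 and DESeq2, and the aligner, the annotation and the strand setting of the counting are not given in the sources used here. Of 27179 identifiers, 25275 were given a symbol from the reference tables and 1904 had none.

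The test was edgeR's quasi-likelihood test (edgeR 4.0.16, R 4.3.3) with TMM scaling and the filterByExpr filter (minimum count 10, minimum total count 15) over 15583 genes, with a Benjamini-Hochberg adjusted p of 0.05 as the threshold. The SE was the size of the log2 fold change over the square root of F. For single values the two-sided exact permutation test ran over 70 assignments of libraries. Counts between libraries of one population differed by more than sampling noise, with a mean chi-square per gene of at least 34.7. A level of 3 counts was used as the floor, which covers counting error only. The sources used here do not mention molecular identifiers for these libraries. The fitting step was tested on simulated data. Exonic lengths and coordinates came from GENCODE M21 on GRCm38, and promoter windows from RefSeq.

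The coat genes, the related and marker lists and the tests were chosen with earlier results of these data known. The genes named were the coat genes, the listed genes, the 2 nearest measured genes on each side of each locus and the 3 genes most like each coat gene across libraries. Of the listed genes, 1 (Hbb-bt) was not matched. Alternatives were DESeq2 1.42.0, limma-voom (limma 3.58.1) with sample quality weights, DESeq2 size factors, library size only, no filter, at least 10 counts in every library, removal of mitochondrial and ribosomal RNA genes, robust shrinkage and leaving out each library in turn. The other experiments of the study were not analysed here.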

Additional observations from a re-analysis of the deposited data

Results flagged for a closer look

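Cavin3 in QZ1-hi replicate 4 stood apart from the other QZ1-hi libraries, at 22.6 CPM against 37.9 to 41.1 CPM. The gap between this library and the nearest one, as a share of the whole range of log2 CPM, was 0.865, above Dixon's critical value for 4 libraries. This was 1 of 56 groups of 4 libraries examined, and chance alone flags about 1 in 20. QZ1-hi replicate 4 was also the lowest of the QZ1-hi libraries for Cav1, Cav2, Cavin1, Cavin2 and Ehd2. It had the smallest count outside mitochondrial and ribosomal RNA genes, 8749446. QZ1-hi replicate 3 had nearly as few, 8815258, and the highest Cavin3 level in QZ1-hi, 41.1 CPM. Among QZ1-hi libraries, replicate 4 had the highest levels of Ptprc and Lyz2, both on the leukocyte list, and of the erythroid gene Hba-a1. Ptprc had 222 against 71.4 to 116 CPM, Lyz2 5763 against 2696 to 3122 CPM and Hba-a1 313 against 42.9 to 144 CPM. QZ1-lo replicate 4 was likewise the highest of its population for these genes, at 161 CPM for Ptprc, 3761 for Lyz2 and 990 for Hba-a1. Its Cavin3 level was 31.6 CPM, within the QZ1-lo range of 27.9 to 39.0 CPM. The part of leukocyte or erythroid RNA in the Cavin3 values was not tested.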

How the results depend on the processing

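Of 112 log2 fold changes recomputed, 106 kept their direction and their side of the threshold, and of 162 counts, 158 stayed within 1.5 times the count reported. Cav1, Cavin1 and Cavin2 stayed called in all 16 alternatives. Cav2 became called with DESeq2 (0.59), with limma-voom (0.68), without QZ1-lo replicate 3 (0.78) and without QZ1-hi replicate 4 (0.74). With library size only, the median of all genes shifted from 0.02 to -0.44, calls over all genes became 882 higher and 2509 lower, and Cavin3 (-0.29) and Ehd2 (-0.22) changed sign without being called, while Cav2 was 0.16 and Pacsin2 -0.52. Calls in the cholesterol list then numbered 5 and in the clathrin list 2. Leaving out each library in turn, log2 fold changes ranged from 2.60 to 3.03 for Cav1, 0.43 to 0.78 for Cav2, 1.24 to 1.62 for Cavin1, 2.39 to 3.14 for Cavin2, 0.03 to 0.33 for Cavin3, 0.10 to 0.38 for Ehd2 and -0.13 to -0.01 for Pacsin2. Pairs of coat genes without overlap numbered 14 to 17, coat genes apart from the endothelial list 5 to 7, and calls over all genes 1136 to 1506 higher and 938 to 1201 lower. No paired analysis was possible because the labels and the study do not say which QZ1-hi and QZ1-lo libraries share a mouse.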

Other observations

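For each coat gene, the 3 other genes whose log2 CPM over the 8 libraries ran closest to it, after centring on the mean, were listed as a description. For Cav1 they were Mxra7 (root mean square difference 0.17 on the log2 scale), Ppp1r16b (0.22), a phosphatase subunit known from endothelium, and Slc16a9 (0.23). For Cavin2 they were Dbn1 (0.20), an actin-binding protein, Medag (0.20) and Mfap2 (0.24), a glycoprotein of elastic microfibrils. For Cavin1 they were Ifitm3 (0.15), Plpp3 (0.17), a lipid phosphatase, and Pcolce (0.17), which enhances procollagen processing. The closest to Cav2 were Trim35 (0.06), Aldh2 (0.06), the mitochondrial aldehyde dehydrogenase, and Ehd1 (0.09), an EHD relative. Cavin3 ran closest to Cd151 (0.08), a tetraspanin, Ehd2 to F2r (0.08), the thrombin receptor, and Pacsin2 to Srsf6 (0.03), a splicing factor. Among the coat genes themselves, Cavin3 and Ehd2 differed by 0.12 and Cav1 and Cavin2 by 0.39, while Cavin2 and Pacsin2 differed by 1.69.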
